A study of Mus musculus with 21 samples.

Results

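The 10 genes described here belong to the p53 pathway: *Trp53* itself and 9 genes that p53 activates, namely *Mdm2*, *Cdkn1a*, *Ccng1*, *Trp53inp1*, *Phlda3*, *Zmat3*, *Bbc3*, *Bax* and *Perp*. They were chosen by name as known pathway members, with earlier results of these data known, and all 10 were matched by symbol to the identifiers in the count tables, which list 51467 genes. Counts came from 7 cultures of mouse V6.5 embryonic stem cells (ESCs) grown with serum, LIF and the inhibitors of the 2i medium: 3 wild type and 4 *Ddx6* KO, made with CRISPR-Cas9, with 2 cultures each of clone 1 and clone 2. Each clone is a line grown from 1 cell, and per the study one clone carries a single-base insertion and the other a large deletion, so a difference from wild type cannot be told apart from what the clones acquired otherwise. Every culture, wild type included, was labelled with 500 µM 4-thiouridine (4sU) for 30 min and its RNA was then split, so that nascent RNA (pulled down through the incorporated 4sU) and rRNA-depleted total RNA were sequenced from the same culture, giving 14 libraries. DDX6 is a DEAD-box RNA helicase of P-bodies that has been implicated in translational repression and in decay of mRNA. For miRNA targets in these cells, the study reports that loss of DDX6 raised translation while mRNA stability changed little.

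p53 is a transcription factor that is kept low by the ubiquitin ligase MDM2 and accumulates after DNA damage or other stress. It binds a DNA element made of a pair of similar half-sites and switches on genes that halt the cell cycle, repair DNA or start mitochondrial apoptosis, and *Mdm2* is itself a target, which closes a negative feedback loop. ESCs carry abundant p53 but have a weak G1 checkpoint, and the ESCC miRNAs that dominate these cells are known to target *Cdkn1a*.

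Binding elements and miRNA sites are shown first, because p53 binds DNA while DDX6 and miRNAs act on the transcript. Promoter windows of RefSeq (GRCm38.p6), from 250 bases before to 50 after each annotated start, held an entry for 7 of the 10 genes (not for *Trp53inp1*, *Zmat3* and *Perp*). A p53 consensus element, 2 half-sites of 10 bases with a spacer of up to 13 and at most 1 mismatch, was found in *Cdkn1a* and *Ccng1*, against 0.718% of 27025 genes with windows. The consensus is its own reverse complement, so that both strands were covered. The elements without spacer are these, with the 4 central bases of each half-site in capitals:

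Cdkn1a, chr17:29090928-29090947, + strand: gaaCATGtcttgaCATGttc

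Ccng1, chr11:40755462-40755481, - strand: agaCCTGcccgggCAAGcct

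The *Cdkn1a* element began at position -51 and the *Ccng1* element at position -195 relative to the start of the window that held it. There were 32851 windows for 27025 genes, so a gene can have several starts. The *Cdkn1a* window lay at the outer end of the annotated gene (chr17:29090976), and distances to other starts were not measured. Each element shown had 1 mismatch, and *Cdkn1a* also held an overlapping element with none, which 0.0740% of genes held. A single half-site without mismatch was present in 5 of the 7 genes (*Trp53*, *Mdm2*, *Cdkn1a*, *Ccng1* and *Bax*), against 9.55% of all genes. These matches are letters in a window and no measurement of binding. Sequence outside the windows was not searched, so a gene without a match here may hold an element elsewhere.

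The ESCC miRNAs of the miR-290 and miR-302 clusters share 1 seed (bases 2 to 8, in capitals), as these 3 members from RefSeq (GRCm38.p6) show:

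mmu-miR-291a-3p: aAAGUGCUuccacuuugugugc

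mmu-miR-294-3p: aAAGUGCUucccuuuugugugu

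mmu-miR-302b-3p: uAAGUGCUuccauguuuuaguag

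In the 3′ UTR of each gene's principal transcript (Gencode M21, GRCm38), the sense strand was searched for the letters GCACTT, which pair with bases 2 to 7 of these miRNAs. They were found in 4 of the 10 genes (*Cdkn1a*, *Ccng1*, *Trp53inp1* and *Zmat3*), against 30.6% of 11883 genes, and all 4 also held a 7mer (AGCACTT or GCACTTA), against 19%. *Cdkn1a* had 3 sites and was the only one of the 10 with an 8mer (an A on both sides of GCACTT), which 3.21% of genes held. The 5 sites of 7 or 8 bases follow within their neighbouring bases, with the shared letters GCACTT in capitals, and all lie in exonic 3′ UTR sequence:

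Cdkn1a, 8mer, chr17:29100490-29100517, + strand: tgggtgtcaaaGCACTTagtgggtctga

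Cdkn1a, 7mer, chr17:29099818-29099845, + strand: agacctgaataGCACTTtggaaaaatga

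Ccng1, 7mer, chr11:40750542-40750569, - strand: ttactgaaataGCACTTctttaaattac

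Trp53inp1, 7mer, chr4:11174216-11174243, + strand: tgaacagcacaGCACTTtgccaaaaaac

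Zmat3, 7mer, chr3:32339094-32339121, - strand: gggtttccgaaGCACTTggaagttccct

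The 3′ UTRs of these 4 genes were 1329, 2316, 4420 and 6692 bases long, all above the median of 983 over 11883 genes, and longer UTRs hold more matches of any short motif. The AU-rich motif TATTTAT was found in *Mdm2*, *Ccng1* and *Trp53inp1*, against 27.9% of all genes.

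Library totals were 2441639 to 3570192 counts for 4sU and 5724179 to 7369651 for total RNA, so values are more precise in total RNA. Levels are given as CPM (counts scaled to a common library size) after TMM scaling over all 14 libraries, and the lowest count of any of the 10 genes was 22 (*Perp* in a wild-type 4sU library), well above the floor of 3 counts. TMM factors were 0.925 to 0.942 in wild type and 1.03 to 1.07 in *Ddx6* KO. Changes are log2 fold changes (log2FC) of *Ddx6* KO against wild type with their SE, from edgeR's quasi-likelihood test with Benjamini-Hochberg adjustment over 14518 tested genes. Stability is the change in total over 4sU, the interaction of genotype and assay. Nothing in the labels says that the cultures of 1 group were started independently, so p values measure the spread between these cultures only. In these bulk samples, fewer cells expressing a gene and less RNA per cell cannot be told apart.

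The targeted gene was checked first. *Ddx6* in total RNA was 334, 384 and 392 CPM in wild type, 57.3 and 67.8 CPM in clone 1 and 23.1 and 21.5 CPM in clone 2 (log2FC -3.12 ± 0.32, edgeR adjusted p = 9.2e-06). In nascent RNA it was 242 to 270.1 CPM in wild type and 145 to 230.5 CPM in *Ddx6* KO (log2FC -0.41 ± 0.32, adjusted p = 0.35). The labels therefore matched the loss of *Ddx6* mRNA in all 4 KO cultures.

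Most of the 10 genes were lower in *Ddx6* KO in nascent or total RNA or both, *Perp* was higher, and *Mdm2* and *Cdkn1a* passed the test in neither. In nascent RNA, 6 fell, 1 rose and 3 did not pass the test, while 41.6% of all tested genes were called (21.0% lower and 20.6% higher). In total RNA, 7 fell, 1 rose and 2 did not pass, while 50.5% of all genes were called (31.0% lower and 19.5% higher). The median log2FC of the 10 genes was -0.32 in nascent and -0.40 in total RNA, beside 0.00094 and -0.10 over all genes tested. With calls this frequent over the whole table, a call by itself did not set these genes apart. An absolute log2FC above 1 was reached by 2 called genes in nascent RNA (*Phlda3* and *Bbc3*), where 10.9% of all genes did so, and by 1 in total RNA (*Perp*), where 10.1% did. Stability was called for 1 of the 10, *Phlda3*, which rose, while 12.4% of all genes were called (3.79% higher and 8.58% lower). None of the 10 was called with an absolute stability log2FC above 1 by edgeR, which 1.08% of genes were, while 4 had an unadjusted p under 0.05 (*Phlda3*, *Ccng1*, *Cdkn1a* and *Zmat3*), which 24.9% of genes had. The median stability log2FC of the 10 was 0.15, beside -0.09 over all genes. With scaling by library size alone, which moved the median log2FC of all genes by 0.21 in nascent and 0.16 in total RNA, 4 of the 10 were called in nascent RNA (3 lower and 1 higher) and 7 in total RNA (5 lower and 2 higher). *Ccng1* and *Trp53inp1* were then not called in total RNA and *Cdkn1a* was called higher (log2FC 0.38, adjusted p = 0.0082). Of all genes, that scaling called 12.7% lower and 36.4% higher in nascent RNA and 19.4% lower and 29.5% higher in total RNA.

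**Figure D1:**
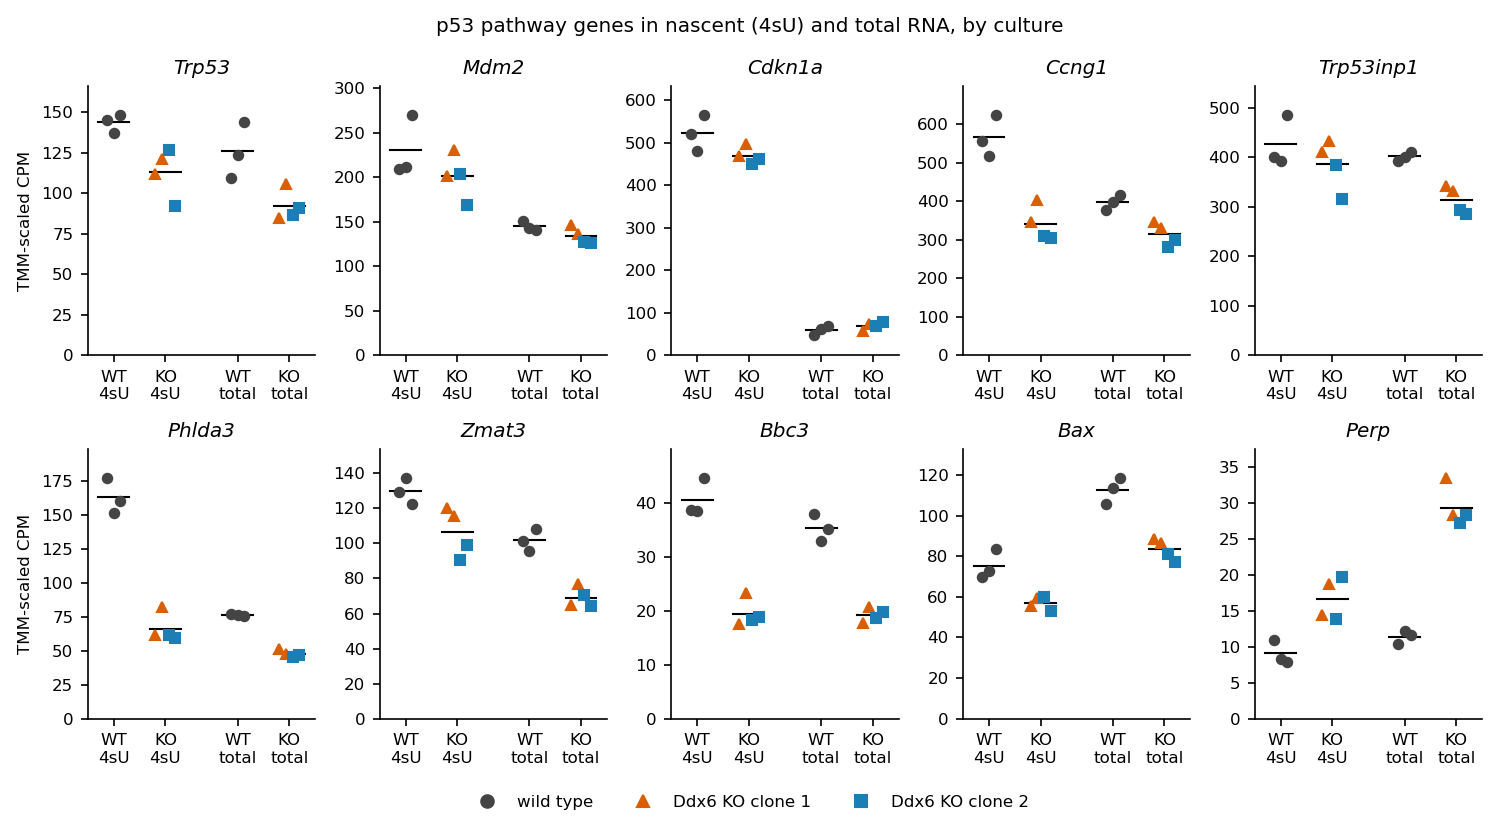
TMM-scaled CPM of each of the 10 genes in nascent (4sU) and total RNA, 1 point per culture and 1 panel per gene, each with its own linear axis from 0; horizontal lines are group means of 3 wild-type and 4 *Ddx6* KO cultures. *Phlda3* and *Bbc3* were lower in all 4 KO cultures in both assays, *Perp* was higher, and *Cdkn1a* was far higher in 4sU than in total RNA in both genotypes.

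*Trp53* (chr11:69580359-69591873, + strand, mm10, as for all genes below) encodes p53 itself. In nascent RNA it was 145, 137 and 148 CPM in wild type, 112 and 121 CPM in clone 1 and 127 and 92.3 CPM in clone 2. In total RNA it was 109, 124 and 144 CPM in wild type, 84.4 and 106 CPM in clone 1 and 86.4 and 90.8 CPM in clone 2. The groups did not overlap in either assay, although 1 culture of clone 1 came close to the lowest wild-type culture in total RNA. *Trp53* fell in nascent RNA by 0.35 ± 0.11 on the log2 scale (edgeR adjusted p = 0.0095) and in total RNA by 0.45 ± 0.09 (adjusted p = 0.0002), and its stability log2FC was -0.11 ± 0.14 (adjusted p = 0.71). The nascent call was lost with scaling by library size alone (log2FC -0.14, adjusted p = 0.27) and in the re-sequencing run alone (log2FC -0.18, adjusted p = 0.32). The processed pseudogene *Trp53-ps* was counted 0 or 1 time per library, beside 330 to 939 counts of *Trp53*, and reads matching both equally were left out by the unique mapping.

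*Mdm2* (chr10:117688875-117710758, - strand), the p53 ligase and feedback target, passed no test. It was 209, 212 and 270.1 CPM in wild-type nascent RNA, against 201 and 231 CPM in clone 1 and 204 and 169 CPM in clone 2. In total RNA it was 141 to 151 CPM in wild type and 127 to 146 CPM in *Ddx6* KO, and the groups overlapped in both assays. Its log2FC was -0.20 ± 0.09 in nascent RNA (95% confidence interval -0.39 to -0.02, edgeR adjusted p = 0.067) and -0.11 ± 0.08 in total RNA (interval -0.28 to 0.06, adjusted p = 0.30). The nascent change was called under 7 of the 19 alternatives, among them without wild-type replicate 1 or 2 (log2FC -0.27 in each, adjusted p = 0.033 and 0.042) and without clone 1 replicate 2 (log2FC -0.27, adjusted p = 0.0086). It was called for clone 2 alone (log2FC -0.31, adjusted p = 0.0067) and not for clone 1 alone (log2FC -0.09, adjusted p = 0.42). With scaling by library size alone it was 0.0015 in nascent and 0.05 in total RNA.

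The cell cycle targets differed from each other. *Cdkn1a* (chr17:29090976-29100727, + strand) encodes p21, the CDK inhibitor through which p53 blocks entry into S phase, and *Ccng1* (chr11:40748552-40755311, - strand) encodes cyclin G1, which joins a phosphatase that acts on MDM2. Nascent *Cdkn1a* was 521, 481 and 565 CPM in wild type, 469 and 496 CPM in clone 1 and 450.2 and 462 CPM in clone 2. Its level in total RNA was only 47.1, 61.5 and 69.5 CPM in wild type, 57.5 and 74.6 CPM in clone 1 and 68.2 and 78.5 CPM in clone 2. The groups overlapped in both assays, and KO values lay towards the lower end in nascent and the upper end in total RNA. Its log2FC was -0.15 ± 0.09 in nascent (edgeR adjusted p = 0.20) and 0.22 ± 0.11 in total RNA (adjusted p = 0.11), and scaling by library size alone turned the nascent value to 0.05. In total RNA *Cdkn1a* was called higher under 8 of the 17 alternatives, among them without wild-type replicate 3 (log2FC 0.35, adjusted p = 0.0054) and without clone 1 replicate 1 (log2FC 0.31, adjusted p = 0.0068). The others included library size alone (log2FC 0.38, adjusted p = 0.0082), TMM within each assay (log2FC 0.32, adjusted p = 0.027) and clone 2 alone (log2FC 0.31, adjusted p = 0.019).

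*Ccng1* fell in both assays. Nascent *Ccng1* was 556, 517 and 624 CPM in wild type, 346 and 403 CPM in clone 1 and 309.6 and 305 CPM in clone 2. Total *Ccng1* was 378, 398 and 416 CPM in wild type, 347 and 331 CPM in clone 1 and 281 and 299.8 CPM in clone 2. All KO cultures were below all wild-type cultures, with clone 2 below clone 1 in each assay. *Ccng1* fell in nascent RNA by 0.73 ± 0.09 on the log2 scale (edgeR adjusted p = 7.4e-06) and in total RNA by 0.34 ± 0.09 (adjusted p = 0.0050), the latter not called with scaling by library size alone (log2FC -0.18, adjusted p = 0.11).

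Among the genes of apoptosis and survival signalling, *Phlda3* and *Bbc3* fell most. *Phlda3* (chr1:135766119-135769136, + strand) encodes a pleckstrin-domain protein that restrains AKT, and *Bbc3* (chr7:16308393-16318205, + strand) encodes PUMA, a BH3-only protein that frees BAX and BAK from their inhibitors. Nascent *Phlda3* was 177, 151 and 161 CPM in wild type, against 61.8 and 82.2 CPM in clone 1 and 61.9 and 59.8 CPM in clone 2. Total *Phlda3* was 77.5, 76.1 and 75.9 CPM in wild type, against 51.6 and 48.0 CPM in clone 1 and 45.7 and 47.1 CPM in clone 2. The gap between the groups was wider than the spread within either. *Phlda3* fell in nascent RNA by 1.30 ± 0.09 on the log2 scale, to 0.407 of wild type (edgeR adjusted p = 2.7e-19), and in total RNA by 0.67 ± 0.08, to 0.628 (adjusted p = 3.7e-10).

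*Bbc3* was the other gene that fell by more than 1 on the log2 scale in nascent RNA. It was 38.7, 38.6 and 44.6 CPM in wild type, 17.5 and 23.3 CPM in clone 1 and 18.3 and 18.9 CPM in clone 2. In total RNA it was 38.0, 33.0 and 35.3 CPM in wild type, 17.8 and 20.8 CPM in clone 1 and 18.6 and 19.8 CPM in clone 2. *Bbc3* fell in both assays by a like amount, 1.07 ± 0.13 in nascent (edgeR adjusted p = 1.4e-09) and 0.87 ± 0.11 in total RNA (adjusted p = 4.8e-10), and the groups stood well apart.

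*Bax* (chr7:45461697-45466898, - strand), the pore-forming effector on the mitochondrial membrane, fell less. Nascent *Bax* was 69.9, 72.8 and 83.4 CPM in wild type, 55.3 and 59.6 CPM in clone 1 and 59.8 and 52.9 CPM in clone 2. Total *Bax* was 106, 114 and 118 CPM in wild type, 88.6 and 86.4 CPM in clone 1 and 81.3 and 77.1 CPM in clone 2. It was higher in total than in 4sU libraries in all 7 cultures, unlike the other 9 genes, and its KO values were lower than wild type in both assays. *Bax* fell by 0.41 ± 0.09 in nascent (edgeR adjusted p = 0.00025) and by 0.43 ± 0.07 in total RNA (adjusted p = 4.1e-07), the nascent call being lost with scaling by library size alone (log2FC -0.21, adjusted p = 0.059).

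*Perp* (chr10:18845020-18857073, + strand), a tetraspan membrane protein of desmosomes and p53-dependent death, was the 1 gene of the 10 that rose. Nascent *Perp* was 11, 8.37 and 7.91 CPM in wild type, against 14.4 and 18.8 CPM in clone 1 and 13.8 and 19.7 CPM in clone 2. Total *Perp* was 10.4, 12.1 and 11.7 CPM in wild type, against 33.4 and 28.4 CPM in clone 1 and 27.2 and 28.3 CPM in clone 2. The KO values in total RNA were all more than 2-fold above the highest wild-type value. *Perp* rose by 0.89 ± 0.20 in nascent (edgeR adjusted p = 0.00026) and by 1.35 ± 0.13 in total RNA, 2.56-fold (adjusted p = 5.0e-13). The nascent values rest on 22 to 75 counts per library, and in the re-sequencing run alone the nascent log2FC was 0.70 (adjusted p = 0.10).

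*Trp53inp1* (chr4:11156431-11174379, + strand) encodes a nuclear and autophagy-linked p53 cofactor, and *Zmat3* (chr3:32334792-32366014, - strand) a zinc finger protein that binds RNA. *Trp53inp1* overlapped in nascent RNA, with 392 to 485 CPM in wild type and 315 to 433 CPM in *Ddx6* KO (log2FC -0.15 ± 0.10, edgeR adjusted p = 0.29, and 0.06 with scaling by library size alone). Total *Trp53inp1* was 393, 401 and 411 CPM in wild type, 342 and 331 CPM in clone 1 and 293 and 285 CPM in clone 2. It fell there by 0.36 ± 0.10 (adjusted p = 0.0063), which was not called with scaling by library size alone (log2FC -0.20, adjusted p = 0.11). *Zmat3* was 129, 137 and 122 CPM in wild-type nascent RNA, 120.2 and 115 CPM in clone 1 and 90.5 and 99.3 CPM in clone 2. Total *Zmat3* was 101, 95.8 and 108 CPM in wild type, 65.0 and 76.6 CPM in clone 1 and 70.5 and 64.5 CPM in clone 2. *Zmat3* fell clearly in total RNA, by 0.55 ± 0.08 (adjusted p = 1.3e-08), and by 0.29 ± 0.08 in nascent RNA (adjusted p = 0.0049), where clone 1 lay just under wild type. The nascent call was lost without clone 2 replicate 1 (log2FC -0.20, adjusted p = 0.058), for clone 1 alone (log2FC -0.13, adjusted p = 0.29), in the re-sequencing run alone (log2FC -0.28, adjusted p = 0.056) and with scaling by library size alone (log2FC -0.08, adjusted p = 0.45).

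By exact two-sided permutation tests of 3 wild-type against 4 KO cultures, 17 of the 30 combinations of gene and measure reached 0.0571, the smallest p that this design allows, and their Benjamini-Hochberg adjusted value over the 30 was 0.101. These were the combinations whose groups did not overlap: 7 genes in nascent RNA, 8 in total RNA and 2 in total over 4sU (*Ccng1* and *Phlda3*). Over all tested genes, 41.7%, 52.4% and 22.9% had groups that did not overlap.

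**Figure D2:**
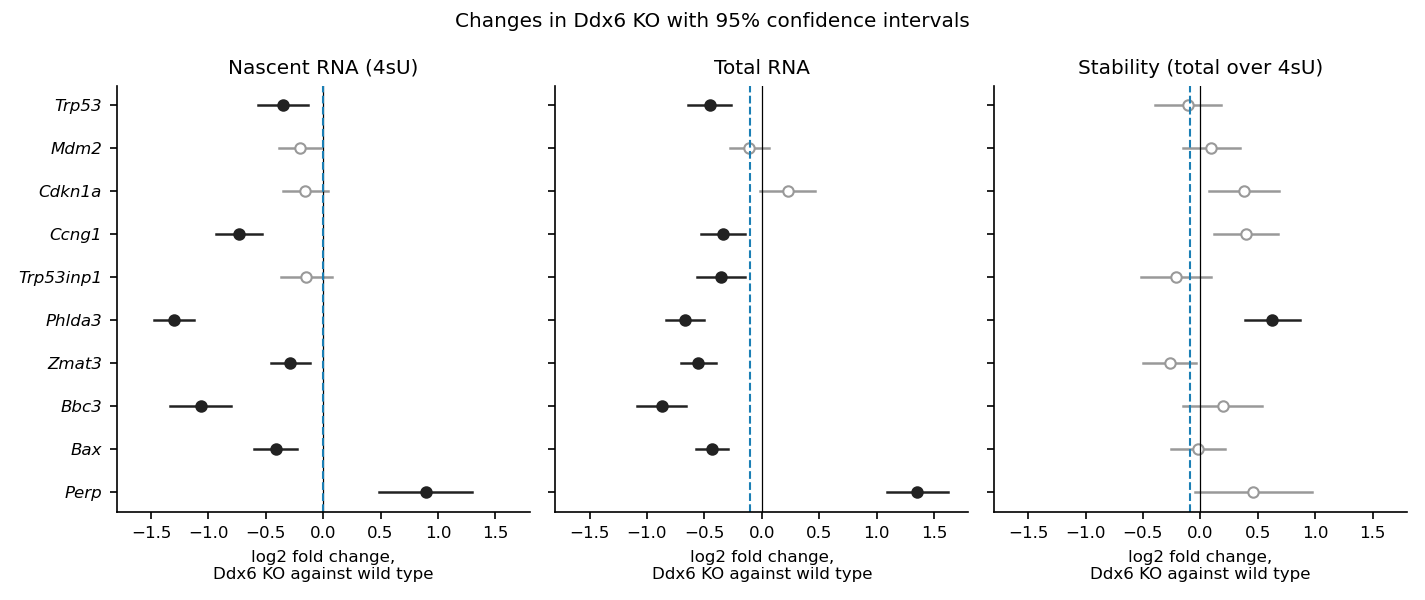
Log2 fold change of *Ddx6* KO against wild type for the 10 genes in nascent RNA, total RNA and stability; bars are 95% confidence intervals, filled points passed the test, and the dashed line is the median of all 14518 tested genes. *Perp* lies above 0 in all 3 panels, with a stability value that did not pass, and *Phlda3* is the 1 filled point for stability.

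Nascent and total RNA together give a measure of relative stability, log2 total over 4sU, which has no absolute scale here. In wild type it had a median of 0.07 over all tested genes, with the middle 50% between -1.11 and 0.87. *Cdkn1a* stood at the low end, with -3.46, -2.96 and -3.02 in the 3 wild-type cultures, at percentile 4.02 of all tested genes (3.17 to 6.48 in single cultures). *Phlda3* followed at percentile 25.3, *Mdm2* at 32.2, *Ccng1* at 35.4 and *Zmat3* at 39.0. *Trp53* (42.5), *Bbc3* (42.6) and *Trp53inp1* (45.6) lay near the middle and differed from each other by less than their spread over cultures. *Perp* (57.2) and *Bax* (65.6) were above the middle. Of the 10 wild-type means, that of *Cdkn1a* was the only one outside the middle 50% of genes.

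Levels in wild type, divided by the exon length in the deposited table, put the genes in different orders in the 2 assays. In 4sU libraries, *Cdkn1a* was highest at 235 ± 19 CPM per kb (SD, n = 3), followed by *Ccng1* at 161 ± 15.5 and *Phlda3* at 114 ± 9.15. *Bax*, *Trp53inp1*, *Trp53* and *Mdm2* followed with 86.9, 78.8, 76.8 and 73.3 CPM per kb, and each of these overlapped its neighbour in the order. *Bbc3* (22.4), *Zmat3* (16.6) and *Perp* (4.66) were lowest and did not overlap. In total RNA, *Bax* was highest at 129.8 ± 7.50 CPM per kb and *Ccng1* next at 113 ± 5.40, while *Cdkn1a*, below 6 of the other genes, was at 26.7 ± 5.10. *Trp53inp1* (74.3) and *Trp53* (67.3) overlapped there, and the other neighbouring genes did not.

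In *Ddx6* KO, total over 4sU of *Phlda3* was -0.26 and -0.77 in clone 1 and -0.44 and -0.35 in clone 2, against -1.19, -0.99 and -1.08 in wild type. All KO values were higher, and *Phlda3* rose in stability by 0.63 ± 0.12 (1.55-fold, edgeR adjusted p = 0.00014), so that its total RNA fell by less than its nascent RNA. The call held under all 20 alternatives run for it, with log2FC of 0.57 to 0.75. No other member was called in this model.

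*Ccng1* came nearest, with -0.00072 and -0.29 in clone 1 and -0.15 and -0.03 in clone 2, against -0.56, -0.38 and -0.59 in wild type. The groups did not overlap, and the stability log2FC was 0.39 ± 0.13 (95% confidence interval 0.12 to 0.67, edgeR adjusted p = 0.062). It passed under 12 of the 20 alternatives, among them the fits without clone 1 replicate 2 (adjusted p = 0.0014) and without clone 2 replicate 1 (adjusted p = 0.020). *Cdkn1a* was -3.02 and -2.73 in clone 1 and -2.72 and -2.56 in clone 2, overlapping with wild type (log2FC 0.38 ± 0.15, interval 0.07 to 0.69, adjusted p = 0.11). It passed under 8 of the 20, among them without wild-type replicate 3 (adjusted p = 0.024) and without clone 1 replicate 1 (adjusted p = 0.012). With the culture as a block, which pairs the 4sU and total RNA of 1 culture, 4 members were called: *Phlda3* (adjusted p = 1.3e-05), *Ccng1* (adjusted p = 3.9e-05), *Cdkn1a* (adjusted p = 0.0027) and, downwards, *Trp53inp1* (log2FC -0.22, adjusted p = 0.045). Of all 14518 genes, that fit called 622 higher and 1414 lower in stability, in place of 550 and 1246 in the main model.

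The stability intervals of the remaining genes give the size of change that these data leave possible. They ran from -0.39 to 0.18 for *Trp53*, from -0.15 to 0.35 for *Mdm2* and from -0.26 to 0.21 for *Bax*, all including 0. *Zmat3* had a log2FC of -0.27 ± 0.11 (edgeR adjusted p = 0.12), called only with scaling by library size alone (log2FC -0.32, adjusted p = 0.045), and *Perp* 0.46 ± 0.25 (adjusted p = 0.25). *Bbc3* had 0.20 ± 0.17 (adjusted p = 0.53). Of the 4 genes with an ESCC seed match, *Cdkn1a* and *Ccng1* had stability values above 0 and *Trp53inp1* and *Zmat3* below 0. None of the 4 was called in the main edgeR model. Under the 20 alternatives, *Ccng1* was called in 12, *Cdkn1a* in 8, and *Trp53inp1* and *Zmat3* in 1 each.

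**Figure D3:**
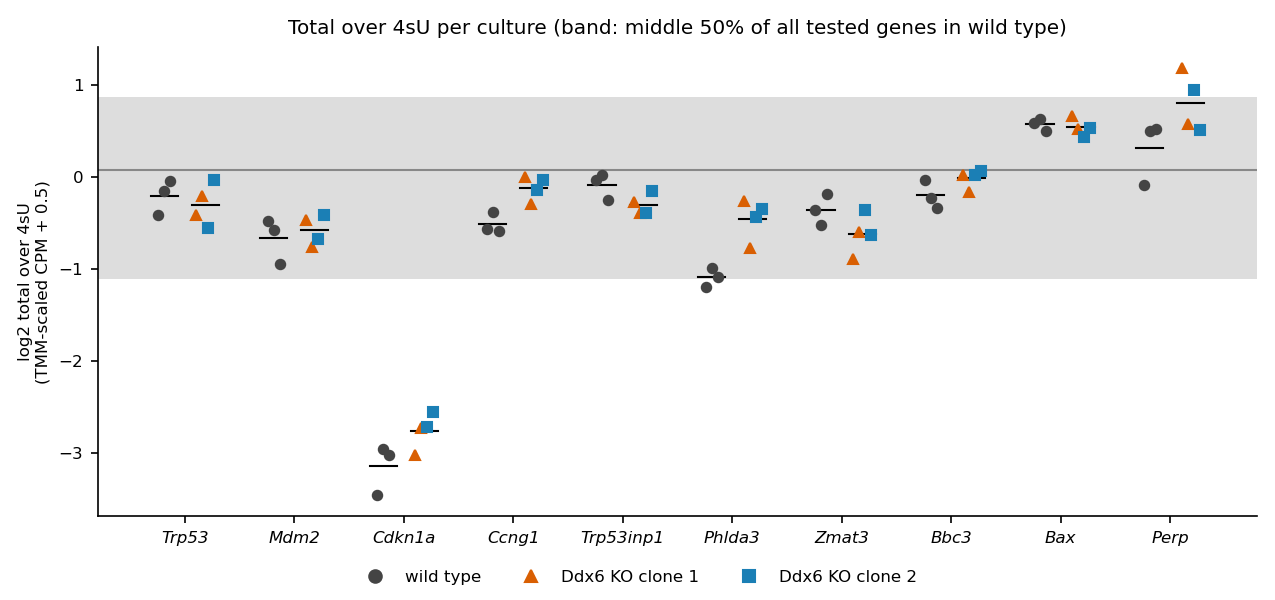
Log2 total over 4sU per culture for the 10 genes (wild type left, *Ddx6* KO right for each gene), with horizontal lines at group means; the grey band is the middle 50% of all tested genes in wild type and its line their median. *Cdkn1a* lies below the band in all 7 cultures, and in *Phlda3* and *Ccng1* all KO points lie above all wild-type points.

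In total RNA, all 10 genes had a log2FC of the same sign in both clones. Tested on its own against wild type, clone 1 gave 8 calls of the 10 in total RNA and clone 2 gave 9, where 45.3% and 44.5% of all genes were called. In nascent RNA they gave 6 and 9 of the 10, where 36.0% and 36.1% of all genes were called. Between the clones, edgeR called 0 of the 10 in nascent, total RNA or stability, with 4, 2 and 0 at an unadjusted p under 0.05, where 0.172%, 0.296% and 0.00689% of all genes were called and 6.54%, 6.61% and 4.04% had such a p. Clone 2 was lower than clone 1 in 9 of the 10 genes in nascent and in 9 of the 10 in total RNA. Some of these differences were small (*Bax* -0.03 in nascent and *Bbc3* -0.02 in total RNA). The share of all genes that were lower in clone 2 was not computed, so this count has no background. The 4 nascent genes with an unadjusted p under 0.05 were *Ccng1* (log2FC of clone 2 against clone 1 -0.28 ± 0.08, edgeR adjusted p = 0.18), *Trp53inp1* (-0.28 ± 0.08, adjusted p = 0.22), *Zmat3* (-0.31 ± 0.10, adjusted p = 0.35) and *Mdm2* (-0.22 ± 0.10, adjusted p = 0.71). Without clone 2 replicate 1, *Trp53inp1* was called in nascent RNA (log2FC -0.42 ± 0.10, adjusted p = 0.031). For the genes with the largest changes, each clone tested alone lay on the same side of wild type. Nascent *Phlda3* had a log2FC of -1.18 ± 0.10 in clone 1 and -1.41 ± 0.10 in clone 2. Total *Perp* had 1.45 ± 0.15 in clone 1 and 1.29 ± 0.15 in clone 2. The 95% confidence interval of the clone difference was from -0.48 to 0.0028 for *Phlda3* in nascent RNA and from -0.44 to 0.13 for *Perp* in total RNA.

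Of 28 further p53 targets, 27 were tested (all but *Fas*), and they did not move one way. In total RNA 7 rose, 10 fell and 10 did not pass, with a median log2FC of -0.10, equal at 2 decimals to that of all genes. In nascent RNA 5 rose, 10 fell and 12 did not pass (median -0.21), and in stability 5 rose, 1 fell and 21 did not pass (median 0.04). Over all genes, 19.5% rose and 31.0% fell in total RNA. The shares were 20.6% and 21.0% in nascent RNA, and 3.79% and 8.58% in stability. Chromosome 6 was higher in *Ddx6* KO as a whole (58.6% of its 735 tested genes were called higher in total RNA, against 17.4% elsewhere), and none of the 10 genes lies on it. The source of this was not tested. Without the 3 further targets on chromosome 6, 4 rose and 10 fell in total RNA and 3 rose and 10 fell in nascent RNA. Of all tested genes off chromosome 6, 17.4% rose and 32.3% fell in total RNA, and 18.5% rose and 21.9% fell in nascent RNA.

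The largest rise among the further targets was that of *Gadd45a*, a growth arrest and DNA repair gene on chromosome 6, from 10.6 to 12.1 CPM in wild-type total RNA to 35.3 to 45.4 CPM in *Ddx6* KO (log2FC 1.84 ± 0.13, edgeR adjusted p = 1.6e-15). *Rrm2b*, a ribonucleotide reductase subunit for repair (0.75 ± 0.10, adjusted p = 5.9e-09), and the kinase *Plk3* (0.59 ± 0.14, adjusted p = 0.00028) followed, each also higher in nascent RNA. The largest falls in total RNA were those of *Pidd1*, which builds the PIDDosome (-0.85 ± 0.13, adjusted p = 1.7e-07), the stress protein *Sesn1* (-0.84 ± 0.09, adjusted p = 3.9e-11) and *Ei24* (-0.79 ± 0.07, adjusted p = 2.5e-14). In nascent RNA the largest falls were those of *Ddit4*, an inhibitor of mTORC1 (-1.41 ± 0.08, adjusted p = 5.2e-21), *Rps27l* (-0.94 ± 0.08, adjusted p = 7.2e-15) and the nuclease gene *Aen* (-0.81 ± 0.07, adjusted p = 6.5e-15).

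Stability rose in several of these further targets whose nascent RNA fell, as it did in *Phlda3*. *Sesn2*, a leucine sensor, was 350.3 to 421 CPM in wild-type nascent RNA and 205 to 235 CPM in *Ddx6* KO, but 145 to 172 CPM and 171 to 208 CPM in total RNA. It fell in nascent RNA (-0.78 ± 0.07, edgeR adjusted p = 5.6e-14) and rose in total RNA (0.25 ± 0.07, adjusted p = 0.0015) and stability (1.03 ± 0.10, adjusted p = 3.0e-11). *Ddit4* (0.89 ± 0.12, adjusted p = 2.2e-07) and *Plk2* (0.74 ± 0.12, adjusted p = 1.3e-05) had the next largest rises in stability, and *Sesn1* was the 1 that fell (-0.58 ± 0.15, adjusted p = 0.0046). A stability value contains the 4sU value with opposite sign, so that an error in 4sU moves both.

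**Figure D4:**
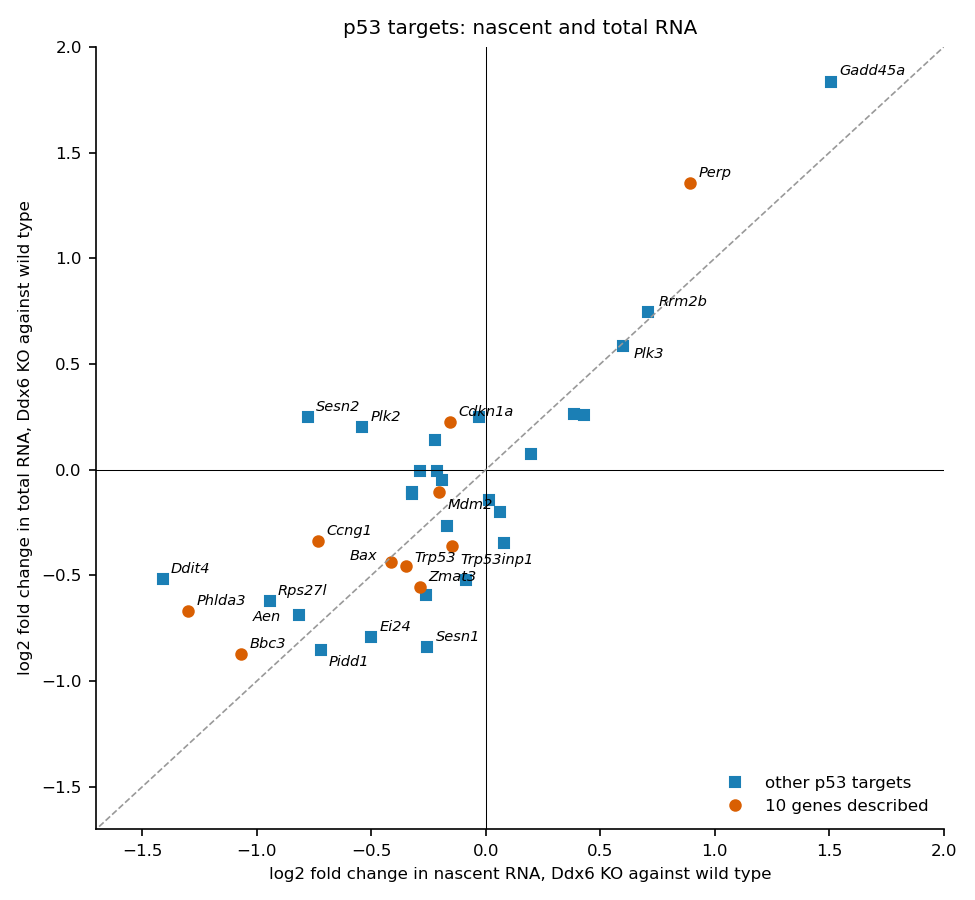
Log2 fold change in total RNA against that in nascent RNA, *Ddx6* KO against wild type, for the 10 genes described (circles) and 27 further p53 targets (squares); on the dashed line both changes are equal, and above it stability is higher in *Ddx6* KO. *Phlda3*, *Ddit4*, *Sesn2* and *Plk2* lie well above the line at negative nascent values, and *Gadd45a* and *Perp* are at the upper right.

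Of 20 regulators of p53, all tested, 1 rose, 9 fell and 10 did not pass in total RNA, and 3 rose, 7 fell and 10 did not pass in nascent RNA (medians -0.12 and -0.09). Over all genes, 31.0% fell and 19.5% rose in total RNA and 21.0% fell and 20.6% rose in nascent RNA. *Mdm4*, the partner of MDM2 that masks the p53 activation domain, fell from 301 to 322 CPM in wild-type total RNA to 187 to 209 CPM in *Ddx6* KO (log2FC -0.69 ± 0.06, edgeR adjusted p = 2.0e-15), with lower nascent RNA (-0.38 ± 0.07, adjusted p = 8.0e-06) and stability (-0.31 ± 0.09, adjusted p = 0.015). The ribosomal protein genes *Rpl11* and *Rpl23*, whose products bind MDM2, also fell in total RNA (-0.64 ± 0.12 and -0.63 ± 0.06, adjusted p = 6.0e-06 and 5.6e-13) and in nascent RNA (-0.81 ± 0.09 and -0.80 ± 0.06, adjusted p = 1.1e-11 and 4.3e-16). *Rpl5* fell in nascent RNA as well (-0.73 ± 0.07, adjusted p = 2.6e-13) but did not pass in total RNA (-0.06 ± 0.11, adjusted p = 0.70). These genes have many near-identical processed pseudogenes, and unique mapping leaves out reads shared with them, so their levels are uncertain. The deacetylase gene *Sirt1* was the 1 that rose in total RNA (0.26 ± 0.08, adjusted p = 0.0032). In stability 1 rose (*Rpl5*, 0.68 ± 0.13, adjusted p = 0.0002) and 4 fell, with the deubiquitinase gene *Usp7* (-0.46 ± 0.08, adjusted p = 2.4e-05), *Atr* and *Hipk2* beside *Mdm4*. Over all genes, 3.79% rose and 8.58% fell in stability. In nascent RNA, *Hipk2* (0.51 ± 0.12), *Atm* (0.26 ± 0.09) and *Usp7* (0.19 ± 0.06) were the 3 that rose. *Hipk2* lies on chromosome 6, and without it 2 regulators rose and 7 fell in nascent RNA. Of all tested genes off chromosome 6, 18.5% rose and 21.9% fell there.

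Of 17 genes of mitochondrial apoptosis, 15 were tested, of which 3 rose, 7 fell and 5 did not pass in total RNA, and 3 rose, 4 fell and 8 did not pass in nascent RNA (medians -0.12 and -0.18). Over all genes, 31.0% were called lower and 19.5% higher in total RNA, and the nascent shares of this list were close to those over all genes (21.0% lower and 20.6% higher). Off chromosome 6, 13 genes of the list were tested, of which 2 rose and 7 fell in total RNA and 1 rose and 4 fell in nascent RNA. Of all genes off chromosome 6, 17.4% rose and 32.3% fell in total RNA, and 18.5% rose and 21.9% fell in nascent RNA. The members that fell included both sides of the pathway. *Mcl1*, an inhibitor of BAX and BAK, fell from 517 to 560.1 CPM in wild-type total RNA to 349 to 361 CPM (log2FC -0.60 ± 0.05, edgeR adjusted p = 1.2e-15). The BH3-only genes *Hrk* (-0.76 ± 0.26, adjusted p = 0.014), *Bmf* (-0.70 ± 0.14, adjusted p = 1.7e-05) and *Bcl2l11* (-0.61 ± 0.13, adjusted p = 6.5e-05) had the largest falls, and *Bcl2l11* fell further in nascent RNA (-1.18 ± 0.13, adjusted p = 1.6e-11). *Bid* (0.68 ± 0.08, adjusted p = 3.9e-10), which lies on chromosome 6, *Bad* (0.61 ± 0.14, adjusted p = 0.00032) and *Bak1* (0.22 ± 0.07, adjusted p = 0.0045) rose. *Bcl2l11* also rose in stability (0.57 ± 0.18, adjusted p = 0.029), and the caspase inhibitor *Xiap* fell (-0.52 ± 0.12, adjusted p = 0.0023) while its nascent RNA rose (0.49 ± 0.10, adjusted p = 5.5e-05).

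The genes whose pattern was most like that of *Trp53*, by the root mean square distance of log2 CPM from the wild-type mean of the same assay over 14 libraries, were *Cndp2* (0.101), *Ywhae* (0.112), *Taf5l* (0.113), *Gnl3* (0.114) and *Ulk1* (0.114). None of them is a member. Each was lower in both assays, as *Trp53* was, which follows from the way they were picked. Nearest to *Cdkn1a* were *Rap2b* (0.112), *Plagl2* (0.124), *Zfp790* (0.126), *Gse1* (0.130) and *Pls3* (0.130). All had a log2FC below 0 in nascent and above 0 in total RNA, which likewise follows from the way they were picked.

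Markers of the labelled cell type were present: the summed level of 9 naive ESC genes in total RNA was 4573 to 4757 CPM in wild type and 4849 to 5019.8 CPM in *Ddx6* KO. Of these, 5 rose and 2 fell (*Tfcp2l1*, -0.51 ± 0.05, edgeR adjusted p = 5.4e-13, and *Dppa3*, -1.04 ± 0.32, adjusted p = 0.0056). Over all genes, 19.5% rose and 31.0% fell in total RNA. Markers of other cell types were low beside the naive sum and did not share 1 direction. The 5 primed epiblast genes summed to 141 to 154 CPM in wild type and 80.9 to 93.1 CPM in *Ddx6* KO, with *Fgf5* at 3 counts or fewer in every total RNA library. Most of that sum was *Dnmt3b*, and all 3 tested primed genes fell, *Otx2* to 0.173 of wild type (-2.53 ± 0.22, edgeR adjusted p = 8.0e-15). The 6 primitive endoderm genes summed to 8.70 to 14.5 and 11.8 to 18.3 CPM, and the 7 feeder fibroblast genes to 15.2 to 18 and 17.2 to 19.5 CPM, of which *Col1a2*, *Col3a1* and *Lum* had 3 counts or fewer in every total RNA library. Among 4 tested feeder genes, *Thy1* (1.47 ± 0.25, edgeR adjusted p = 2.0e-06) and *Col1a1* (0.97 ± 0.30, adjusted p = 0.0049) rose and *Pdgfrb* fell (-0.94 ± 0.21, adjusted p = 0.0002). The part of these markers in the changes of the p53 pathway was not tested.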

How the data were processed

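Nascent (4sU) and rRNA-depleted total RNA of 7 mouse ESC cultures were sequenced with a stranded kit. Counts per gene were deposited by the authors, made with featureCounts 1.5.3 on Gencode M14 exons (stranded setting) from unique STAR 2.5.3a alignments to mm10 after Cutadapt 1.14. Such counts leave out reads shared with near-identical copies. Both sequencing runs of each 4sU library were summed here, and the 92 spike-in rows, all at 0, were left out. The 14518 genes that reached 3 CPM in 3 or more libraries entered edgeR 4.0.16 in R 4.3.3 (TMM over 14 libraries, robust quasi-likelihood F-test, Benjamini-Hochberg adjustment, called at adjusted p below 0.05) in 1 model with genotype, assay and their interaction. Clones were compared in a model that kept them apart. The 4sU and total RNA of a culture were split from the same RNA, which pairs them, and the correlation of their deviations from the group means was 0.00068 to 0.10. Per-culture total over 4sU was computed as log2 of CPM + 0.5. A floor of 3 counts was 1.23 CPM in the smallest 4sU and 0.524 CPM in the smallest total RNA library; floors cover counting error only. Replicate pairs differed by more than sampling noise. Exact permutation tests used scipy 1.17.1, with pandas 2.3.3 and matplotlib 3.10.9 for tables and plots. The tests across genes were tested on simulated data, with 2-fold changes planted in 200 of 14518 genes in KO total RNA. Of these, 79% were called in total RNA and 63.5% in stability, with 6 and 12 other genes called. A 2-fold stability change can therefore go uncalled. No change was planted in nascent RNA, so recovery there was not tested. Alternatives were DESeq2 1.42.0, limma 3.58.1 (voom), other scalings, filters, single runs, blocks, single clones and leaving out each culture.

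The members and gene lists were chosen with earlier results of these data known. Named genes were the 10 members, from each other list up to 3 with the largest rise and up to 3 with the largest fall among those called, in each comparison, the 5 nearest in pattern to *Trp53* and *Cdkn1a*, and *Ddx6*. Marker genes and *Fas* were named beside these. The promoter window for p53 elements was chosen after the data were seen, and sequence farther from the start sites was not analysed here.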

Additional observations from a re-analysis of the deposited data

Results flagged for a closer look

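Nascent *Phlda3* in the 4 *Ddx6* KO cultures held 1 value far from the others: clone 1 replicate 2 was at 82.2 CPM, and the other 3 cultures were at 59.8 to 61.9 CPM. The gap to the nearest culture was 0.891 of the group's whole range, above Dixon's 95% critical value for 4 samples. It was 1 of 30 groups examined, of which chance alone would give 1.5. The same culture had the lowest total over 4sU of the 4 KO cultures (-0.77), and without it the stability log2FC of *Phlda3* was 0.75 (edgeR adjusted p = 1.5e-05).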

How the results depend on the processing

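Of 560 values of the 10 genes recomputed under other settings, 495 kept their direction and their side of the threshold, 10 fell below it, 39 passed it and 16 changed sign. Leaving out 1 culture each gave 6 to 8 of the 10 genes called in nascent RNA, 8 to 9 in total RNA and 1 to 2 in stability. Over all genes these fits called 34.9% to 40.3% in nascent RNA, 45.3% to 48.6% in total RNA and 7.17% to 11.3% in stability. Between the clones, leaving out 1 culture gave 0 to 1 in nascent RNA (*Trp53inp1*, without clone 2 replicate 1). The stability count rose from 1 to 2 with DESeq2 size factors, TMM within each assay and library size alone. It was also 2 with a filter of 3 CPM in all libraries of 1 assay, the re-sequencing run alone and clone 1 alone. Over all genes, the fits with a count of 2 called 7.60% (clone 1 alone) to 15.7% (library size alone) in stability. The count rose to 3 with DESeq2, limma-voom, no filter beyond 1 count and clone 2 alone. Those fits called 3.92% (no filter) to 10.8% (limma-voom) of all genes in stability. With the culture block the count was 4, and 2036 of 14518 genes were called, in place of 1796 in the main model. With the replicate block the stability count was 2 (*Cdkn1a*, log2FC 0.39, edgeR adjusted p = 0.0070, beside *Phlda3*), and *Cdkn1a* was also called in total RNA, making 9 there. In nascent RNA the count stayed at 7. That fit called 12.8% of all genes in stability, 47.7% in total RNA and 39.7% in nascent RNA. Replicate numbers of wild type and KO share only a number, with correlations of -0.03 to 0.07. Requiring an absolute log2FC above 1 left 2 genes in nascent RNA, 1 in total RNA and 0 in stability (1 by edgeR without this limit, 4 at an unadjusted p under 0.05), and the same counts when measured from the median of all genes.

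With library size alone, 4 genes were called in nascent RNA, and log2FC turned to 0.0015 (*Mdm2*), 0.050 (*Cdkn1a*) and 0.059 (*Trp53inp1*) there and to 0.049 (*Mdm2*) in total RNA. That scaling called 5285 of all genes higher and 1838 lower in nascent RNA, in place of 2984 and 3050, and 4277 and 2814 in total RNA, in place of 2829 and 4498. TMM within each assay gave 3606 and 3495 in total RNA, and 734 and 577 in stability in place of 550 and 1246. Other sign changes were all in stability values that passed no test: 0.012 for *Trp53* (first run alone), -0.029 for *Bbc3* (re-sequencing run alone) and, for *Bax*, 0.035 (DESeq2, and DESeq2 size factors), 0.067 (TMM within each assay), 0.024 (no filter), 0.011 (filter of 3 CPM in all libraries of 1 assay), 0.038 (re-sequencing run alone) and 0.043 (clone 1 alone). Leaving out 1 culture gave stability values from -0.054 (without wild-type replicate 3) to 0.19 for *Mdm2* and from -0.063 to 0.019 for *Bax*, above 0 without wild-type replicate 2 (0.013) or clone 2 replicate 1. The cause was not tested. With a pseudocount of 2 CPM, the wild-type percentile of total over 4sU was 1.52 for *Cdkn1a* and 21.1 for *Phlda3*. Requiring an 8mer left 1 gene with a seed match, and allowing no mismatch left 1 with a p53 element. Depth limits nascent *Perp* most.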
